A study of Mus musculus with 6 samples.

Results

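The genes described here encode titin (Ttn), nebulin (Neb), the slow and fast myosin binding proteins C (Mybpc1, Mybpc2), the myomesins (Myom1, Myom2, Myom3) and the skeletal and cardiac alpha-actins (Acta1, Actc1). They were chosen by symbol from the list of the count table, and all 9 of 9 were found among its 24411 genes. All 9 also passed edgeR's filter on low counts, which 12828 genes passed. Titin and nebulin are giant proteins and the myomesins belong to the M-band. The remaining 4 members are neither, since myosin binding protein C sits on the thick filament and alpha-actin forms the thin filament.

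In striated muscle, titin runs from the Z-disc to the M-band as a molecular spring and a scaffold for the thick filament, and nebulin lies along the thin filament. Myomesins crosslink thick filaments at the M-band, and myosin binding protein C modulates the access of myosin heads to actin. Skeletal alpha-actin is the main actin of adult skeletal muscle, while the cardiac form is abundant in the heart and in developing muscle.

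Poly(A) RNA of the soleus (Sol) was sequenced in 3 WT and 3 LSD1-mKO mice after voluntary wheel running (VWR), with 1 library per mouse and 75-base single-end reads. The comparison asks how RNA levels in a slow-twitch muscle of running mice differ when the histone demethylase LSD1 is missing from muscle fibers. All were male C57BL/6 mice. LSD1-mKO mice were homozygous for floxed Lsd1 and carried CreERT2 under the human ACTA1 promoter, which is active in skeletal muscle fibers, so that other cells of the muscle keep the gene. WT mice carried floxed Lsd1 without CreERT2, so loss of LSD1 and presence of CreERT2 cannot be told apart in this comparison. Both groups were 8 weeks old at the start, had wheels for 38 days, and after a familiarization of 3 days were given tamoxifen (75 mg/kg) on 5 days. Running was recorded for 30 days, and the series has no sedentary mice. Before tissue was taken, the mice had no access to the wheel and were fasted. Totals were 8940206, 10366443 and 10989846 estimated counts in the WT libraries (replicates 1 to 3), against 13563881, 13798059 and 10984664 in the LSD1-mKO libraries.

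Kdm1a, which encodes LSD1, was read first as a check of the labels. Its level was 40.5, 38.2 and 33.6 counts per 1000000 after TMM scaling (CPM) in WT replicates 1 to 3, against 14.6, 16.6 and 16.6 CPM in LSD1-mKO replicates 1 to 3. Every LSD1-mKO mouse was below every WT mouse, with a log2 fold change of -1.23 (SE 0.11, adjusted p = 0.0160, edgeR). The Kdm1a call was lost when WT replicate 2 or any LSD1-mKO mouse was left out, at adjusted p from 0.111 to 0.209 (edgeR) with log2 fold changes from -1.26 to -1.17. Esr1 was the other gene past the threshold, with a log2 fold change of 4.15 (SE 0.20, adjusted p = 1.95e-04, edgeR). The CreERT2 transgene holds part of the estrogen receptor, and reads of either origin cannot be told apart in this table.

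The tissue label was checked against fiber genes. The oxidative fast myosin Myh2 and the slow myosin Myh7 had mean levels of 7250 and 4821 transcripts per 1000000 (TPM), whereas Myh4 of the fastest fibers had 8.13 TPM. Other fast fiber genes were abundant, with Myh1 between 2353 and 6072 CPM and the fast troponins Tnnt3 and Tnnc2 at means of 20761 and 16984 TPM. The slow fiber genes Myl3, Myl2, Tnnc1, Tpm3 and Atp2a2 had means of 11240, 10920, 7256, 4962 and 3473 TPM. Of the cardiac markers, Myl7 and Mybpc3 were at 0 in all 6 libraries, and Nppa and Nppb were at most 0.279 and 0.270 CPM. Myh6 and Tnnt2 of the same list were present in every library, at 12.9 to 17.3 and 5.68 to 11.5 CPM, and Tnni3 and Ryr2 were at most 1.11 and 0.810 CPM.

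The library of WT replicate 1 was at an end of the range in several measures. It had the lowest total and the lowest TMM factor, at 0.929, against 0.978 to 1.07 in the other 5 libraries. At the other end, WT replicate 2 had the highest factor, at 1.07. It was the highest of the 3 WT mice for 7 of the 9 members, the exceptions being Mybpc2 and Actc1. All 6 of 6 fibroblast markers were tested, and their summed level was 1329, 3437 and 4395 CPM in WT replicates 1 to 3, against 2801, 1361 and 1488 CPM in LSD1-mKO replicates 1 to 3. Dcn was the most abundant of them and none of the 6 was at 0. WT replicate 1 was thus the lowest of the 6 mice for this sum, with LSD1-mKO replicates 2 and 3 close to it. LSD1-mKO replicate 1 was above both other LSD1-mKO mice and below WT replicates 2 and 3. Of 5 immune markers, 4 were tested and none was at 0 in all libraries. The level summed over all 5, led by Csf1r, was 21.7, 92.8 and 74.1 CPM in WT and 60.7, 26.8 and 36.2 CPM in LSD1-mKO. The lowest value was again in WT replicate 1, and LSD1-mKO replicate 1 again lay between the other LSD1-mKO mice and WT replicates 2 and 3. The part of these cells in the results below was not tested. In RNA of whole muscle, fewer cells of a type and less RNA per cell cannot be told apart.

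None of the 9 members passed an adjusted p of 0.05 in edgeR, where 0.0156% of all genes tested did. At an unadjusted p under 0.05 there were 0 of 9 members in edgeR, against 6.4% of all genes. DESeq2 called 0 of 9 members (0.327% of all genes), with 1 member, Ttn, at an unadjusted p under 0.05 (4.5% of all genes), and limma voom placed 0 of 9 under that p (6.31% of all genes). The CPM of the genotypes did not overlap for 1 of 9 members, Actc1, where 12.7% of all genes did not overlap. Scaled by library size alone, 3 members (Ttn, Mybpc1 and Actc1) did not overlap, where 11.8% of all genes did not. The fitted level was higher in LSD1-mKO for 7 members and lower for 2, with a median log2 fold change of 0.11 beside -0.02 over all genes tested.

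Without WT replicate 1, 3 of 9 members (Ttn, Neb and Myom1) had an unadjusted p under 0.05, where 14.4% of all genes did, and 0 of 9 passed the adjusted threshold, as 0.0229% of all genes did. This fit tested 13079 genes. Without that mouse the CPM did not overlap for 4 members (Ttn, Neb, Myom1 and Actc1), against 33.8% of all genes, and without WT replicate 2 for 3 members (Mybpc1, Acta1 and Actc1), against 21.2% of all genes.

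Titin is encoded on chromosome 2 of GRCm38 from 76703980 to 76982547 on the minus strand, and its longest protein-coding transcript has 106824 bases in 347 exons. Ttn measured 12377.5, 8479 and 9133 CPM in WT replicates 1 to 3, against 11574, 11818 and 14632 CPM in LSD1-mKO replicates 1 to 3. WT replicates 2 and 3 were below every LSD1-mKO mouse, but WT replicate 1 was above LSD1-mKO replicates 1 and 2, so the groups overlapped. The mean was 9996 ± 2088 CPM (SD, n = 3) in WT and 12675 ± 1700 CPM (SD, n = 3) in LSD1-mKO. For Ttn, LSD1-mKO differed from WT by 0.34 (log2 fold change) with a 95% interval from -0.11 to 0.80 (SE 0.20, adjusted p = 0.777, edgeR). Without WT replicate 1 the groups did not overlap and the log2 fold change was 0.53 (SE 0.14, adjusted p = 0.208, edgeR), while it was 0.24 without WT replicate 2 and 0.23 without LSD1-mKO replicate 3.

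Nebulin is encoded on the same chromosome from 52136647 to 52378474, also on the minus strand, by a transcript of 22489 bases in 157 exons. Neb measured 7111, 5248 and 5902 CPM in WT and 6528, 6717.5 and 8471 CPM in LSD1-mKO. The mice had the same order as for Ttn, with LSD1-mKO replicate 3 highest, WT replicate 1 next and WT replicates 2 and 3 below every LSD1-mKO mouse. For Neb, LSD1-mKO differed from WT by 0.25 (log2 fold change) with a 95% interval from -0.15 to 0.65 (SE 0.18, adjusted p = 0.810, edgeR). It was 0.38 without WT replicate 1 (SE 0.14, adjusted p = 0.306, edgeR), 0.15 without WT replicate 2 and 0.12 without LSD1-mKO replicate 3.

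The counts of long transcripts can move with RNA integrity, so the 305 other tested genes with a transcript of at least 10000 bases were set beside Ttn and Neb. Their median deviation from each gene's mean over 6 mice was -0.07, 0.02 and 0.04 on the log2 scale in WT replicates 1 to 3, against 0.01, -0.06 and 0.05 in LSD1-mKO replicates 1 to 3. LSD1-mKO replicate 3 had the highest value here as for Ttn and Neb, while WT replicate 1 had the lowest. The median log2 fold change of these genes was -0.02, as over all genes tested. Their part in the values of Ttn and Neb was not tested.

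The slow myosin binding protein C gene, Mybpc1, lies on chromosome 10 from 88518279 to 88605152. It measured 7428.5, 5302 and 6247 CPM in WT and 5629, 5264 and 5606 CPM in LSD1-mKO. WT replicates 1 and 3 were above every LSD1-mKO mouse, and WT replicate 2 lay among them. For Mybpc1, LSD1-mKO differed from WT by -0.20 (log2 fold change) with a 95% interval from -0.57 to 0.16 (SE 0.16, adjusted p = 0.838, edgeR). Without WT replicate 1 it was -0.07 (SE 0.11, adjusted p = 0.816, edgeR), and without WT replicate 2 it was -0.31.

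Its fast counterpart, Mybpc2 (chromosome 7, 44501699 to 44524656), measured 52.2, 6.84 and 148 CPM in WT and 91.5, 35.4 and 123 CPM in LSD1-mKO. The highest and the lowest mouse were both WT and differed 21.6-fold, more than for any other member. For Mybpc2, LSD1-mKO differed from WT by 0.26 (log2 fold change) with a 95% interval from -1.63 to 2.16 (SE 0.83, adjusted p = 0.959, edgeR). WT replicate 2, the lowest mouse for Mybpc2, was also the lowest for the fast alpha-actinin Actn3, which measured 91.9, 63.6 and 198 CPM in WT and 497, 165 and 341 CPM in LSD1-mKO. The highest mouse was WT replicate 3 for Mybpc2 and LSD1-mKO replicate 1 for Actn3. Of the other fast fiber genes listed, Myh1, Tnnt3, Tnnc2 and Atp2a1 were lowest in WT replicate 2. Myh4, Mylpf and Tnni2 were lowest in LSD1-mKO replicate 2. The log2 fold change of Mybpc2 was 0.98 with limma voom and 0.86 with the replicate block. With WT replicate 1, 2 or 3 left out it was 0.10, -0.27 and 1.52, and without LSD1-mKO replicate 2 or 3 it was 0.64 and -0.12.

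Myomesin 1, expressed across striated muscle, is encoded on chromosome 17 from 71002633 to 71126856. Myom1 measured 2417, 1691 and 1875 CPM in WT and 2036, 2141 and 2160 CPM in LSD1-mKO. The LSD1-mKO mice lay close together, between WT replicate 1 above them and WT replicates 2 and 3 below. For Myom1, LSD1-mKO differed from WT by 0.08 (log2 fold change) with a 95% interval from -0.26 to 0.42 (SE 0.15, adjusted p = 0.933, edgeR), and 0.25 without WT replicate 1 (SE 0.09, adjusted p = 0.306, edgeR). Leaving out WT replicate 2 or 3 gave -0.023 and 0.041.

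Myomesin 2, the form linked to fast fibers, is encoded on chromosome 8 from 15057653 to 15133541. Myom2 measured 818, 374 and 712 CPM in WT and 930, 506 and 544 CPM in LSD1-mKO. LSD1-mKO replicate 1 was the highest mouse and WT replicate 2 the lowest, and between them WT replicates 1 and 3 were above LSD1-mKO replicates 2 and 3. For Myom2, LSD1-mKO differed from WT by 0.06 (log2 fold change) with a 95% interval from -0.66 to 0.78 (SE 0.31, adjusted p = 0.979, edgeR). With WT replicate 1, 2 or 3 left out it was 0.28, -0.21 and 0.15, and with LSD1-mKO replicate 1, 2 or 3 left out -0.27, 0.22 and 0.18.

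Myom3 (chromosome 4, 135759715 to 135815564) encodes the third myomesin. It measured 456, 322 and 393 CPM in WT and 491, 351 and 424 CPM in LSD1-mKO. The mice of the groups alternated in rank from the lowest to the highest. For Myom3, LSD1-mKO differed from WT by 0.11 (log2 fold change) with a 95% interval from -0.25 to 0.48 (SE 0.16, adjusted p = 0.911, edgeR). It was 0.24 without WT replicate 1 or LSD1-mKO replicate 2, -0.0073 without WT replicate 2 and -0.0086 without LSD1-mKO replicate 1.

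Skeletal alpha-actin is encoded on chromosome 8 from 123891769 to 123894751. Acta1 measured 40894, 32177 and 38482 CPM in WT and 37681, 33667 and 33973 CPM in LSD1-mKO. The highest and the lowest mouse were both WT. For Acta1, LSD1-mKO differed from WT by -0.08 (log2 fold change) with a 95% interval from -0.55 to 0.38 (SE 0.20, adjusted p = 0.951, edgeR). Leaving out WT replicate 1 or 2 gave -0.0070 and -0.18, and leaving out LSD1-mKO replicate 1 or 2 gave -0.14 and -0.05. Acta1 held from 3.32% to 3.94% of all counts of a library.

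Cardiac alpha-actin is encoded on chromosome 2 from 114047282 to 114053548. Actc1 measured 34.8, 39.3 and 40.0 CPM in WT and 43.1, 42.6 and 44.1 CPM in LSD1-mKO. No WT mouse reached the lowest LSD1-mKO mouse, and the gap between the groups was smaller than the range of the WT mice. The mean was 38.0 ± 2.78 CPM (SD, n = 3) in WT and 43.3 ± 0.802 CPM (SD, n = 3) in LSD1-mKO, where it was 114% of WT. For Actc1, LSD1-mKO differed from WT by 0.18 (log2 fold change) with a 95% interval from -0.02 to 0.39 (SE 0.09, adjusted p = 0.766, edgeR). Of 8 cardiac marker genes, 2 were tested, and the level summed over all 8 was between 20.2 and 30.0 CPM in every mouse, with Myh6 the most abundant.

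Levels of different genes were compared as TPM, which divide by transcript length. Over both genotypes, Acta1 was the highest member, at 55229 ± 3523 TPM (SD, n = 6), 16.6-fold above the mean of Mybpc1 at 3326 ± 336 TPM. Below them came Myom1 at 802 ± 62.8 TPM and Neb at 654 ± 96.6 TPM, whose ranges over the 6 mice overlapped. The next neighbours also overlapped from one to the next, namely Myom2 at 280 ± 83.6 TPM, Ttn at 234 ± 41.7 TPM and Myom3 at 161 ± 20.9 TPM. Lowest were Actc1 at 61.2 ± 6.53 TPM and Mybpc2 at 46.5 ± 33.7 TPM, which overlapped as well. The ranges of Acta1 and Mybpc1, of Mybpc1 and Myom1, of Neb and Myom2, and of Myom3 and Actc1 did not overlap. With the merged length of all exons in place of the longest transcript, Neb came before Myom1 and Ttn before Myom2.

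**Figure D1:**
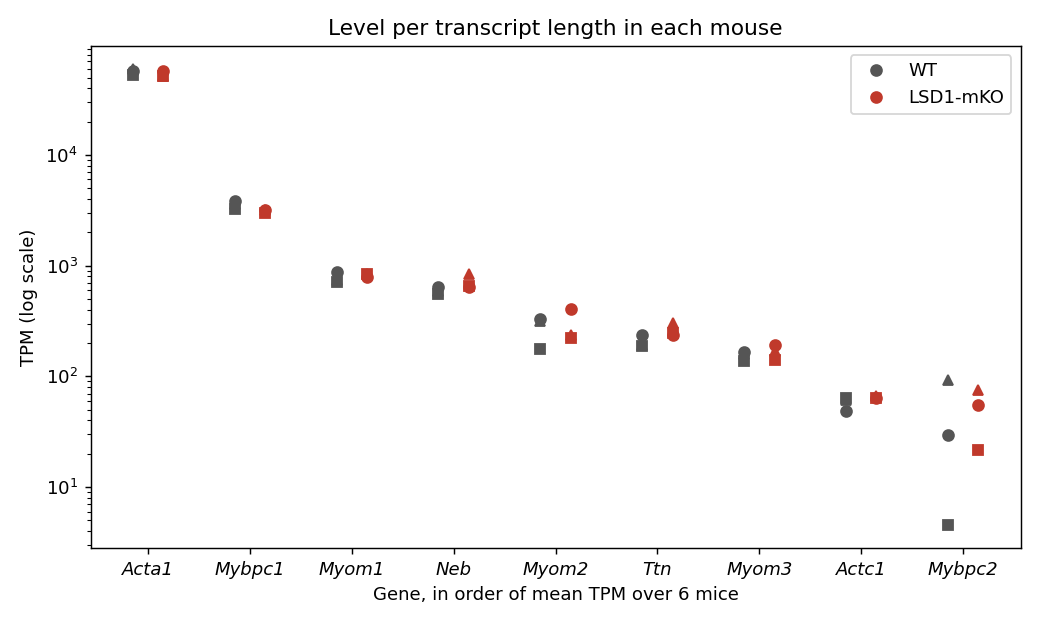
Transcripts per 1000000 (log axis) of the 9 members in each of 3 WT and 3 LSD1-mKO mice, with a symbol for each replicate number, ordered by the mean over 6 mice. Acta1 lies between 51492.5 and 59959 TPM in every mouse, and Mybpc2 spreads from 4.51 to 92.2 TPM.

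A ratio of counts inside a mouse does not depend on the scaling between libraries. Among related members, Actc1 was 0.0852%, 0.122% and 0.104% of Acta1 in WT replicates 1 to 3, against 0.114%, 0.126% and 0.130% in LSD1-mKO replicates 1 to 3. WT replicate 1 was lowest, and WT replicate 2 was above LSD1-mKO replicate 1 (exact permutation test of the log2 ratio, 2-sided, p = 0.2). With groups of 3 this exact p cannot be below 0.1, so no ratio could reach 0.05. Neb was 57.5%, 61.9% and 64.6% of Ttn in WT and 56.4%, 56.8% and 57.9% in LSD1-mKO. The ratio was nearly the same in the LSD1-mKO mice and WT replicate 1, and higher in the remaining WT mice (2-sided exact permutation test, p = 0.2).

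The fast form was 0.703%, 0.129% and 2.37% of the slow form for Mybpc2 over Mybpc1 in WT, and 1.63%, 0.672% and 2.19% in LSD1-mKO (2-sided exact permutation test, p = 0.7). Both ends of that range were WT mice. Myom2 was 33.8%, 22.1% and 38.0% of Myom1 in WT and 45.7%, 23.6% and 25.2% in LSD1-mKO, with overlapping groups (2-sided exact permutation test, p = 1). Myom3 was 18.9%, 19.0% and 21.0% of Myom1 in WT and 24.1%, 16.4% and 19.6% in LSD1-mKO, where the highest and the lowest mouse were both LSD1-mKO (2-sided exact permutation test, p = 1).

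All 36 pairs of members were then listed, a step chosen after the values were seen. The ratio did not overlap between the genotypes for 7 of the 36 pairs, where 12.4% of all pairs of tested genes did not overlap. Mybpc1 was in 5 of the 7 pairs and Ttn in 3, so the pairs share genes and are not independent of each other. There were 14 such pairs without WT replicate 1, where 32.6% of all pairs of tested genes did not overlap, and 13 without LSD1-mKO replicate 1 (24.4% of all pairs), a count that can only stay or rise when a mouse is removed. The ratio of Ttn to Mybpc1 was 1.67, 1.60 and 1.46 in WT and 2.06, 2.25 and 2.61 in LSD1-mKO. Every LSD1-mKO mouse had more Ttn counts for each Mybpc1 count than every WT mouse. The ratio of Neb to Mybpc1 was 0.957, 0.990 and 0.945 in WT and 1.16, 1.28 and 1.51 in LSD1-mKO. Mybpc1 to Myom1 was 3.07, 3.14 and 3.33 in WT and 2.76, 2.46 and 2.60 in LSD1-mKO. The pairs were picked for lack of overlap, so WT replicate 1 had to fall on the WT side in each. The other pairs without overlap were Ttn to Myom1, Ttn to Acta1, Mybpc1 to Myom3 and Mybpc1 to Actc1. For Mybpc1 to Actc1, WT replicate 1 stood apart at 213, against 135 and 156 in WT replicates 2 and 3. For Ttn to Acta1 it was at 0.303, closer to LSD1-mKO replicate 1 at 0.307 than to WT replicates 2 and 3 at 0.264 and 0.237. A ratio shows an unequal difference of its genes and not which of them differed.

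**Figure D2:**
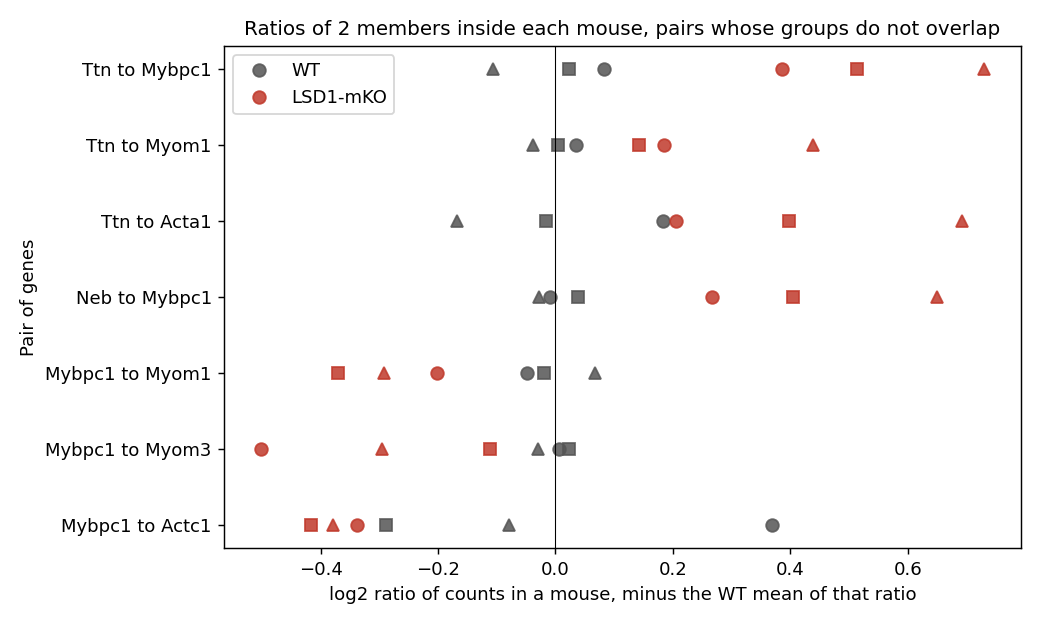
Log2 ratio of the counts of 2 members in each mouse, minus the WT mean of that ratio, for the 7 of 36 pairs whose genotypes do not overlap (horizontal axis), with a symbol for each replicate number. For Ttn to Mybpc1 the ratios run from 1.46 to 1.67 in WT and from 2.06 to 2.61 in LSD1-mKO.

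Members can share reads with related genes. Of the 1372 stretches of 75 bases in the Acta1 transcript, 3 (0.219%) occur unchanged in a transcript of another actin gene, Actb. For the other 8 members this number was 0. Ttn and Neb repeat 0.654% and 2.64% of their own stretches of this length. The coding sequences of Acta1 and Actc1, each of 1131 bases without the stop codon, differ at 155 bases and are 86.3% identical. Aligned at the same place, 75 bases of the 2 coding sequences held from 3 to 17 differences with a median of 10. Exons of Myom1 also overlap those of Myl12a, which is transcribed from the opposite strand. Exons of Ttn, Neb, Mybpc1 and Mybpc2 overlap those of the opposite-strand genes Gm13938, Gm13522, Gm48752 and Gm44646, which are not among the genes listed. Whether counting used the strand is not stated in the sources used here, so counts of these overlaps are uncertain.

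The genes whose log2 CPM was most alike over the 6 mice were found among 10210 other genes with a mean of at least 5 CPM, as a description. For Ttn these were Ccz1, Zscan26 and Ttc19, with a Pearson r from 0.989 to 0.990. For Neb they were Tfcp2, Plin5 and a gene whose symbol reads as the date 5-Mar (r from 0.987 to 0.991). Ttn and Neb had an r of 0.977 with each other, and no other pair of members reached 0.95. For Mybpc1 they were Lemd3 (r = 0.998), Smim4 and Tssc4, and for Mybpc2 Mrps31 (r = 0.991), Tppp3 and Zfp943. For Myom1 they were Tor1aip1 (r = 0.999), Zranb2 and Oat. Myom2 was most like Pibf1 (r = 0.985), Qsox1 and Tmem182, and Myom3 most like Micall1 (r = 0.993), Parp3 and Ank3. Acta1 was most like the stretch-responsive gene Ankrd2 (r = 0.985), Atf3 and A930005H10Rik, and Actc1 most like Tmem141 (r = 0.995), Echdc1 and Alg14. Of the 10210 genes, 90 reached an r of 0.95 with Ttn, 67 with Neb and 75 with Myom1. For the other members this number ran from 12 (Mybpc2) to 30 (Actc1).

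Partner genes were read from the same fit, and 0 of them passed the adjusted threshold in either direction in edgeR. Of the M-band and thick filament partners, 12 of 14 were tested (median log2 fold change 0.05), and 1 (Obsl1) had an unadjusted p under 0.05, beside 6.4% of all genes. Obsl1, the obscurin-like partner of titin and myomesin, measured 50.3, 45.1 and 57.2 CPM in WT and 37.5, 45.7 and 30.5 CPM in LSD1-mKO. LSD1-mKO replicate 2 lay just above the lowest WT mouse and the other LSD1-mKO mice lay below all WT mice (log2 fold change -0.42, SE 0.15, adjusted p = 0.718, edgeR). Smyd1, a methyltransferase that aids thick filament assembly, had a log2 fold change of 0.14 and was the 1 of 12 without overlap (12.7% of all genes). The abundant Ckm and Fhl1 had log2 fold changes of 0.08 and -0.09.

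Of the titin partners outside the M-band, 10 of 10 were tested, with a median of 0.02. Actn3, a Z-disc alpha-actinin of fast fibers, had the largest difference among them, at 118 ± 70.9 CPM (SD, n = 3) in WT and 334 ± 167 CPM (SD, n = 3) in LSD1-mKO, and the groups overlapped (log2 fold change 1.50, SE 0.48, adjusted p = 0.636, edgeR). Ankrd23 measured 2176, 1890 and 1373 CPM in WT and 2221, 2401 and 2226 CPM in LSD1-mKO. It was the 1 of 10 without overlap (12.7% of all genes), although WT replicate 1 was close to the lowest LSD1-mKO mouse (log2 fold change 0.33, SE 0.17, adjusted p = 0.766, edgeR). The log2 fold change of Ankrd23 was 0.17 without WT replicate 3 and 0.49 without WT replicate 1. The titin cap gene Tcap had a log2 fold change of -0.26, which was -0.04 without WT replicate 1, and Actn2 had 0.04.

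Of the thin filament partners, 11 of 12 were tested, with a median of 0.05, and 3 (Xirp1, Tmod1 and Cap2) had an unadjusted p under 0.05, beside 6.4% of all genes. Cap2, named after its values were seen, had a log2 fold change of 0.22 and was the 1 of 11 without overlap (12.7% of all genes). Xirp1, an actin-binding repeat protein, measured 298, 278 and 284 CPM in WT and 449.7, 295 and 387 CPM in LSD1-mKO. LSD1-mKO replicate 2 was level with the WT mice and the other LSD1-mKO mice were above them (log2 fold change 0.40, SE 0.15, adjusted p = 0.723, edgeR), and without LSD1-mKO replicate 1 the value was 0.25. The pointed-end cap Tmod1 measured 171, 131 and 159 CPM in WT and 214, 164 and 206 CPM in LSD1-mKO, with overlapping groups (log2 fold change 0.34, SE 0.14, adjusted p = 0.729, edgeR). Lmod2 and Nrap, the highest of this list per length, had log2 fold changes of -0.20 and 0.10.

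Of the other actins, 3 of 4 were tested, with a median of -0.20, and the cytoplasmic Actg1 and Actb had log2 fold changes of -0.31 and -0.20. Of the SRF pathway and titin splicing genes, 5 were listed and tested, with a median of -0.05. Rbm24, Srf, Mkl2 and Mkl1 had log2 fold changes of -0.05, 0.03, -0.08 and -0.10.

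Beside the members with their median of 0.11, the median was -0.18 for the 8 sarcomeric myosin heavy chains and 0.06 for the 9 troponins and tropomyosins. In neither list was a gene under an unadjusted p of 0.05 (6.4% of all genes) or without overlap (12.7% of all genes). Myh2, Myh7, Myh7b and Myh8 had log2 fold changes of -0.25, -0.05, 0.23 and -1.05, and Tnnt3, Tnnc2, Tpm3 and Tnnc1 had 0.06, 0.0030, 0.22 and 0.17. No test compared these lists. The slow fiber genes had a median of 0.16, with Myl3 at 0.04, Myl2 at 0.15 and Atp2a2 at 0.31. The fast fiber genes had a median of -0.00026, with Myh4 at -0.36, and 1 of 8 (Actn3) had an unadjusted p under 0.05, beside 6.4% of all genes. The denervation and regeneration genes, 8 of 9 tested, had a median of -0.02, with Myh3 at -0.55 and Chrna1 at -0.02.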

How the data were processed

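The authors aligned the reads to mm10 with STAR, per the submitters' processing notes, which also name DESeq2, and deposited estimated counts per gene without normalization. The counting tool and gene annotation are not given in the sources used here. A deposited table of fold changes and p-values for the same groups was not used. The estimated counts, of which at most 9.9% per library were not whole, were rounded and compared between 3 WT and 3 LSD1-mKO mice with edgeR 4.0.16 (TMM, filterByExpr by genotype, quasi-likelihood test, Benjamini-Hochberg over 12828 genes, threshold 0.05) in R 4.3.3. DESeq2 1.42.0 and limma 3.58.1 (voom) were alternatives, as were other scalings and filters, the replicate number as a block and each mouse left out. For TPM, counts were divided by the longest coding transcript of GENCODE vM21, to which 23350 symbols matched as listed and 692 by other names, and 99.7% of the counts had a length. Ratios used log2(count + 0.5) and were compared over the 20 arrangements of 6 mice. Nothing in the sources makes any of the 6 libraries share a mouse, and no pair was as alike as repeated draws of a library, since the chi-square per gene was at least 9.92. The genes named include the members, the 2 partner genes per list with the highest TPM and the 2 with the smallest p, the 3 genes most alike each member, Kdm1a, and every gene past the threshold; others are markers, the most abundant gene of a list, genes that share bases with a member, or genes named for their values. The members and lists were chosen with earlier results of these data known.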

Additional observations from a re-analysis of the deposited data

How the results depend on the processing

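Over the alternatives, 0 of 9 members and 0 partner genes passed the threshold in any setting, and the lowest adjusted p of a member was 0.208 (Ttn without WT replicate 1, edgeR). The log2 fold changes of the members kept their direction in 128 of 135 comparisons, and those of 32 named partner genes in 460 of 480. The causes of the exceptions were not tested, and fits that left out a mouse had fewer samples. Counts of members at an unadjusted p, members without overlap, partner genes and pairs were added after seeing the data.

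Genes called higher and lower numbered 33 and 9 with DESeq2, 8 and 3 with all counted genes kept, and 2 higher with limma voom; with a mouse left out they ranged from 1 to 2 and from 0 to 1. Members at an unadjusted p under 0.05 numbered 1 with DESeq2 (4.5% of all genes) and 1 with the library size alone (6.05%), Ttn in both, and from 0 to 3 with a mouse left out (3.78% to 14.4%). Members without overlap numbered 3 with the library size alone (Ttn, Mybpc1 and Actc1; 11.8% of all genes) and from 1 to 4 with a mouse left out (18% to 33.8%). Pairs without overlap ranged from 8 to 14 of 36 with a mouse left out, where from 18.3% to 32.6% of all pairs of tested genes did not overlap. Groups of a pair that do not overlap stay so when a mouse is removed, so these counts can only stay or rise and show no stability.

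Fold changes (log2) over the sets lacking a mouse ran from -0.27 to 1.52 for Mybpc2, from -0.023 to 0.25 for Myom1, from -0.27 to 0.28 for Myom2 and from -0.0086 to 0.24 for Myom3. Among partner genes they ran from -0.18 to 0.034 for Fhl1, from -0.079 to 0.20 for Actn2, from -0.38 to 0.079 for Lmod2, from -0.17 to 0.088 for Rbm24, from -0.043 to 0.071 for Srf, from -0.30 to 0.034 for Mkl1 and from -0.14 to 0.062 for Myh7. The ranges were -0.036 to 0.20 for Tnnt3, -0.077 to 0.13 for Tnnc2, -0.036 to 0.16 for Myl3, -0.61 to 0.15 for Myh4, -0.88 to 0.020 for Myh3 and -0.098 to 0.038 for Chrna1. Tnnc2 was also below 0 with the upper quartile (-0.00016) and the library size alone (-0.010). Genes that kept their sign ran from -2.08 to -0.30 for Myh8, from -0.37 to -0.078 for Myh2, from -0.34 to -0.050 for Actb, from -0.48 to -0.20 for Actg1, from 0.027 to 0.29 for Tnnc1, from 0.016 to 0.17 for Ckm, from 0.019 to 0.24 for Nrap, from -0.21 to -0.015 for Mkl2, from 0.12 to 0.31 for Myh7b, from 0.12 to 0.34 for Tpm3 and from 0.062 to 0.25 for Myl2. The difference in log2 ratio ranged from -0.32 to 0.15 for Myom2 to Myom1, from -0.13 to 0.15 for Myom3 to Myom1, from 0.053 to 2.15 for Mybpc2 to Mybpc1, from 0.13 to 0.39 for Actc1 to Acta1 and from -0.15 to -0.064 for Neb to Ttn.

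With the merged exon length, mean TPM were 73345 for Acta1, 4065 for Mybpc1, 780.5 for Neb, 611 for Myom1, 302 for Ttn, 209 for Myom3 and 78.7 for Actc1.

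With the replicate block, 0 genes were lower at the threshold and Kdm1a, at -1.23, missed it (adjusted p = 0.299, edgeR). Deviations of mice with the same number correlated at -0.364, -0.0968 and -0.146, so replicate numbers were not taken as pairs.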

Other observations

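The marker lists of other cells were read from the same fit, and 0 of their genes passed the adjusted threshold in edgeR. All 6 fibroblast markers had a lower fitted level in LSD1-mKO (median -0.73 on the log2 scale), and so had the 4 immune markers tested (median -0.57). The WT and LSD1-mKO mice overlapped for every gene of these lists. The tendon markers, led by Thbs4, had a median of -0.22, with 3 of 4 fitted lower. The endothelial markers, led by Cdh5, had a median of -0.15, with 3 of 5 fitted lower. Of these, Vwf, named after its values were seen, was the 1 of 5 without overlap (12.7% of all genes), at 67.4, 75.4 and 84.5 CPM in WT and 66.5, 50.7 and 48.6 CPM in LSD1-mKO. Medians were 0.03 for smooth muscle and pericyte markers, -0.05 for adipocyte markers, -0.05 for Schwann cell markers, -0.13 for the 2 cardiac markers tested and -0.03 for red blood cell markers. Of the latter, Hba-a1, also named after its values were seen, measured 13.5, 5.76 and 0 CPM in WT and 2.59, 78.0 and 202 CPM in LSD1-mKO, with overlapping groups (log2 fold change 3.95, SE 1.36, adjusted p = 0.684, edgeR), while the other 4 were fitted lower. Hba-a2 was among these 4, with a log2 fold change of -0.58, and reads shared by Hba-a1 and Hba-a2 were not examined.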
